A study of Homo sapiens with 6 samples.

Results

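The insulin-like growth factor (IGF) genes and their nearest signaling partners were followed in a pair of isogenic human breast cancer lines. The set held 8 genes: the ligands IGF1 and IGF2, the non-coding RNA H19 that neighbours IGF2 on chromosome 11, the receptors IGF1R, IGF2R and INSR, and the docking adaptors IRS1 and IRS2. Members were taken by gene name, and every one of their probes was kept. They made up 8 of the 25940 named genes and 11 of the 34127 probes on the array, and 10 of the 11 probes were bright enough to be tested. RNA came from pLUM, a pure luminal line cultured with 1 nM estradiol for 72 h, and from pLB, a pure luminobasal line grown under estradiol withdrawal (EWD), with 3 arrays of each. Both lines derive from xenograft tumors of T47Dco, a subline of the T47D luminal breast cancer cells, and were purified by cell sorting, pLUM as CLD3+ CD49f- and pLB as CLD3- CD49f+. Line and hormone changed together, pLUM was isolated from an estradiol-grown tumor and pLB from one grown with estradiol plus progesterone, and each line represents a single isolation, so none of these can be told apart here. Before RNA was extracted the cells were fixed and sorted on cytokeratin 5 (CK5), and the labels do not state which CK5 fraction each array received.

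In the IGF pathway, secreted IGF1 and IGF2 bind the tyrosine kinase receptor IGF1R, and IGF2 also binds the insulin receptor INSR. The activated receptors phosphorylate IRS1 and IRS2, which dock PI3-kinase and feed the AKT and mTOR relay, while IGF2R, the mannose 6-phosphate receptor, carries IGF2 to lysosomes and transmits no kinase signal. IGF2 and H19 are reciprocally imprinted neighbours that share enhancers, and H19 is the host of the microRNA miR-675. In the breast, IGF ligands are classically supplied by stroma, and in luminal cancer cells IGF1R and IRS1 are known as estrogen-responsive genes.

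The H19 probe and the IGF2 probe that crosses a splice junction are shown because H19 and IGF2 gave the largest measured or bounded differences of the set. For IGF2 that difference came from its brighter probe, which is not printed. The junction probe itself had a bound of 5.63-fold. Both are 60 bases long and read 5′ to 3′ along the transcript. On hg19, the H19 probe lies at chr11:2016674-2016733 and the IGF2 probe between chr11:2154402-2154754, both on the minus strand.
H19 probe: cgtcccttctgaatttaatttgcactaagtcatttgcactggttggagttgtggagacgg
IGF2 junction probe: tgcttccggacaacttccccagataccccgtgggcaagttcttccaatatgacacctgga

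The arms of miR-675 are given because their precursor lies within H19, although their own levels were not analysed here. RefSeq places hsa-miR-675-3p at chr11:1996768-1996787 and hsa-miR-675-5p at chr11:1996800-1996822 on the minus strand of GRCh38.p14. Capitals mark the seed, bases 2 to 8, and the arms do not share it.
hsa-miR-675-5p: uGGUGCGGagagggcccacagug
hsa-miR-675-3p: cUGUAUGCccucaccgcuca

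Of the 8 members, 6 were called higher in pLB and 0 were called lower. A gene was called when the line means of its brightest probe differed by at least 2-fold with a limma adjusted p under 0.05, and by that rule 22.7% of the 17668 tested genes were higher in pLB and 23.1% were lower. At an unadjusted p under 0.05, and with the methods' t-test, 0 members were lower as well. The called members were IGF2, H19, IGF1R, IGF2R, IRS1 and IRS2, and for each of these 6 the pLB arrays did not overlap the pLUM arrays, which was so for 69.2% of all tested genes in either direction and, with pLB above, for 35.7%. By probe, 7 of the 10 tested were called higher and 0 lower, against 21.9% higher and 23.7% lower of all 23103 tested probes. The H19 probe and the IGF2 junction probe were bright enough to be tested through the pLB arrays alone. Their calls therefore rest on pLUM readings at background. IGF1 and INSR were not called. By size the differences fell into a group of 3 over 16-fold (IGF2, H19 and IRS2) and a group of 3 between 2-fold and 4-fold (IGF1R, IGF2R and IRS1).

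Values below are log2 signals relative to the 75th percentile of the same array, so a value of 0 stands at that percentile. Probes differ in how well they bind their target, so a value was compared only with that of the same probe on other arrays.

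**Figure D1:**
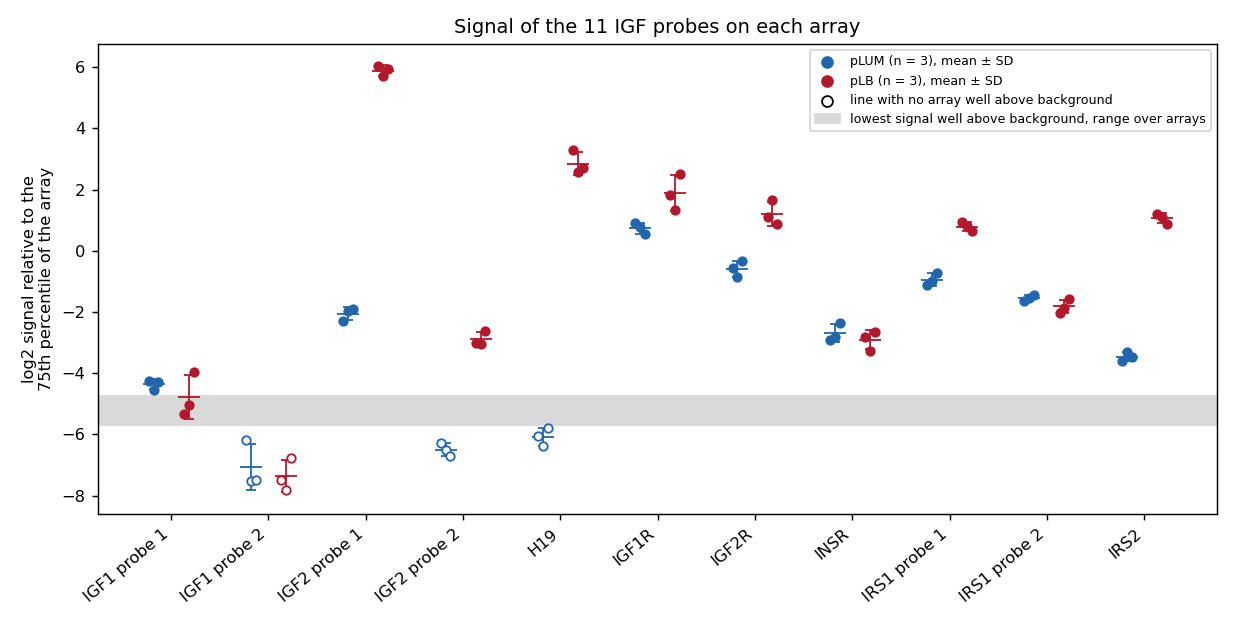
Log2 signal relative to the array's 75th percentile (vertical axis) of each of the 11 IGF probes on the 3 pLUM (blue) and 3 pLB (red) arrays, with mean ± SD. IGF2 probe 2 is the junction probe, and IRS1 probe 1 is the probe that differed. For IGF2, H19 and IRS2 the red points sit well above the blue ones, for INSR and IGF1 they intermix, and heights are not comparable between probes.

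IGF2, a fetal growth factor and ligand of IGF1R, was among the transcripts that differed most between the lines. Its brighter probe (chr11:2150394-2150453) read -2.28, -1.96 and -1.91 on the pLUM arrays and 6.03, 5.70 and 5.95 on the pLB arrays. The signal was thus well below the 75th percentile on every pLUM array and far above it on every pLB array, and the pLB triplicate was as tight as the pLUM triplicate (SD 0.17 and 0.20, n = 3 each). IGF2 was higher in pLB by 7.94 ± 0.18 (SE) on the log2 scale, 246-fold (95% interval 182 to 331), with a limma adjusted p of 3.1e-07. That change ranked 58 of 17668 genes by increase. Within the slide that held both lines, the difference was 8.08. Such within-slide values, here and for the members below, rest on pLB replicate 1 alone. With normexp background correction, which changes dim signals most, the difference was 7.27 (154-fold). The same probe is also listed for the INS-IGF2 readthrough transcript, whose own probe was not tested, being well above background on 0 pLUM arrays and 1 pLB array.

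The IGF2 junction probe printed above was higher in pLB as well. It read -6.29, -6.51 and -6.70 on the pLUM arrays, none of them well above background, and -3.0, -3.03 and -2.62 on the pLB arrays, all of them well above it. Because pLUM was not well above background, only a bound could be given, without a p-value, and the IGF2 junction probe was at least 5.63-fold higher in pLB. Under normexp its difference was 0.55 and it was no longer called (limma adjusted p of 0.28), so the size of the IGF2 difference rests on the brighter probe.

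H19, an imprinted non-coding RNA abundant in the embryo, was not well above background in pLUM and bright in pLB. Its probe read -6.06, -6.38 and -5.80 on the pLUM arrays and 3.29, 2.57 and 2.70 on the pLB arrays. It was well above background on 0 pLUM arrays and on all 3 pLB arrays. In raw intensity the 3 pLUM values were 7.13, 6.74 and 10.2, and the pLB values were 8510, 4130 and 2920. H19 was at least 300-fold higher in pLB (8.23 on the log2 scale). No p-value is set beside this bound, because the fit used pLUM readings at background. The bound fell to 38.6-fold under normexp and lay between 289-fold and 356-fold under the other scalings. Within the slide that held both lines the pLB reading lay 9.36 above the pLUM readings, which were themselves at background.

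IGF1, the liver and stromal ligand and the principal activator of IGF1R, was dim in both lines. Its brighter probe, spotted repeatedly over the array (chr12:102796266-102796325, 10 spots) read -4.24, -4.55 and -4.29 on the pLUM arrays and -5.33, -5.03 and -3.96 on the pLB arrays. The lines overlapped, since the highest value of all was a pLB array. The difference was -0.41 ± 0.35 (SE), with a 95% interval of -1.24 to 0.41 and a limma adjusted p of 0.33. These readings lay close to the limit of the array, the probe being well above background on 3 pLUM and 2 pLB arrays. The other IGF1 probe was well above background on none of the 6 arrays and was not tested. The interval still held IGF1 levels more than 2-fold lower in pLB. Without pLB replicate 3 the IGF1 difference was -0.82 with a limma adjusted p of 0.0073, short of 2-fold, and within the slide that held both lines it was -0.97.

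IGF1R, the kinase receptor for both ligands, was moderately higher in pLB. Its probe (chr15:99507366-99507425) read 0.90, 0.77 and 0.54 on the pLUM arrays and 1.81, 1.34 and 2.52 on the pLB arrays. The lines did not overlap, but the gap was only 0.45 and pLB replicate 3 stood above the other pLB arrays. IGF1R was 2.22-fold higher, a difference of 1.15 ± 0.30 (SE, 95% interval 0.44 to 1.86), with a limma adjusted p of 0.013. The call depended on the setting. Without pLB replicate 3 the difference was 0.84 (1.79-fold), below the fold threshold. With slide as a block the limma adjusted p was 0.08 for a difference of 1.07, and the methods' t-test gave 0.056 after Benjamini-Hochberg adjustment.

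IGF2R, which clears IGF2 and sorts lysosomal enzymes, was higher in pLB by a wider margin. Its probe (chr6:160527114-160527173) read -0.55, -0.87 and -0.34 on the pLUM arrays and 1.1, 1.66 and 0.87 on the pLB arrays. Every pLB array exceeded every pLUM array, by 1.22 at the closest. IGF2R was 3.48-fold higher (95% interval 2.31 to 5.26), a difference of 1.80 ± 0.25 (SE), with a limma adjusted p of 6.4e-04. It kept its call under all 20 alternatives, between 1.58 and 2.05, and was 1.69 higher within the slide that held both lines.

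INSR, the insulin receptor, which also forms hybrid receptors with IGF1R, was not distinguishable between the lines. Its probe (chr19:7112351-7112410) read -2.90, -2.82 and -2.36 on the pLUM arrays and -2.81, -3.26 and -2.64 on the pLB arrays, and the lines overlapped. The difference was -0.21 ± 0.23 (SE), with a 95% interval of -0.76 to 0.35 and a limma adjusted p of 0.47, so a change of 2-fold in either direction lay outside the interval. The sign turned under scaling to the spike-in probes, to 0.04. Insulin receptor isoforms were not analysed here.

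**Figure D2:**
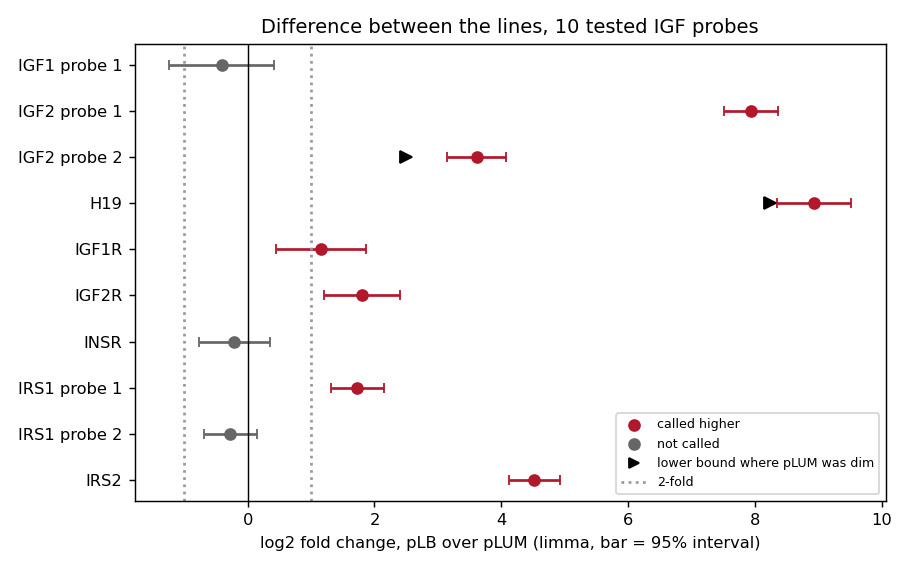
Log2 fold change of pLB over pLUM (horizontal axis) with its 95% interval for the 10 tested IGF probes; red points were called higher, gray points were not called, and dotted lines mark 2-fold. Black triangles give the lower bound for the IGF2 junction probe and for H19 (8.23 on the log2 scale), where no pLUM array was well above background.

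IRS1, the adaptor usually paired with IGF1R in luminal cells, gave a different answer at each of its probes. The probe at chr2:227600148-227600207 read -1.12, -0.98 and -0.73 on the pLUM arrays and 0.93, 0.81 and 0.64 on the pLB arrays. It was 3.32-fold higher in pLB (95% interval 2.48 to 4.45), a difference of 1.73 ± 0.18 (SE), with a limma adjusted p of 1.4e-04. The IRS1 probe 3530 bases away, at chr2:227596618-227596677, read -1.64, -1.54 and -1.46 on the pLUM arrays and -2.02, -1.86 and -1.58 on the pLB arrays. There the lines overlapped, the difference was -0.27 (95% interval -0.69 to 0.15) and the limma adjusted p was 0.22. Both probes were well above background on all 6 arrays, and within the slide that held both lines they differed by 1.87 and -0.47. IRS1 was called because its brighter probe represented it, and with the mean of both probes the IRS1 difference was 0.73 (limma adjusted p of 0.0041), below the 2-fold threshold. The position of these probes relative to exons and untranslated regions was not assigned here.

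IRS2, the adaptor that supports motility and glucose metabolism downstream of the same receptors, had the largest fitted difference among the receptors and adaptors. Its probe (chr13:110406645-110406704) read -3.60, -3.32 and -3.47 on the pLUM arrays and 1.19, 1.11 and 0.88 on the pLB arrays. It was well above background on all 6 arrays, so the fold needed no bound. IRS2 was 23.0-fold higher in pLB (95% interval 17.4 to 30.3), a difference of 4.52 ± 0.17 (SE), with a limma adjusted p of 1.5e-06 and rank 422 of 17668. With normexp the difference was 3.21, and within the slide that held both lines it was 4.65. The IRS2 and IRS1 differences come from separate probes, and the difference between those differences was not tested.

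ESR1, the estrogen receptor gene, was lower in pLB at all 3 of its probes. It was 3.47-fold lower (-1.80 on the log2 scale, limma adjusted p of 0.0037) at the probe well above background in both lines, and by at least 20.4-fold and at least 38.7-fold at the others. The part of ESR1 or estradiol in the IGF1R and IRS1 values was not tested.

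Markers of other cells were read beside the ligands, because a bulk RNA level cannot separate fewer cells of a type from less RNA per cell. Of 8 stromal markers, PDGFRA, PDGFRB, DCN, LUM and COL3A1 were well above background on no array. The summed linear level of all 8, in units of the array's 75th percentile, was 0.782 to 0.977 in pLUM and 1.27 to 1.8 in pLB. COL1A2 and THY1 were well above background in pLB alone. COL1A1, well above background on every array, was not called (-0.56), with a mean log2 signal of -0.27 in pLUM and -0.83 in pLB. The 8 basal markers were all called higher, with sums of 1.07 to 1.33 in pLUM and 82.4 to 116 in pLB. Of 11 luminal markers, 8 were lower and 1 was higher, with sums of 413 to 456 in pLUM and 131 to 139 in pLB. The 4 leukocyte markers summed to 0.196 to 0.32 in pLUM and 0.256 to 0.383 in pLB, and the 3 endothelial ones to 0.0659 to 0.101 and 0.0868 to 0.196. The part of stromal, leukocyte or endothelial RNA in the IGF2 and H19 levels was not tested.

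The genes flanking IGF2 and H19 on 11p15.5 had smaller differences. Of 20 tested neighbours, 11 were called higher in pLB (55.0%, against 22.7% of all genes), 1 lower (5.00% against 23.1%) and 8 neither, with a median log2 difference of 1.32 against 0.03 over all tested genes. Among them PHLDA2, a maternally expressed placental growth restrainer, was 8.64-fold higher (3.11). CDKN1C, an imprinted cyclin-dependent kinase inhibitor, was 6.87-fold higher (2.78). KCNQ1, a potassium channel gene, was higher by 2.98 but well above background on only 1 pLUM array, and TNNT3, a troponin of fast muscle, was at least 5.07-fold higher; neither KCNQ1 (0.36) nor TNNT3 (0.41) was called under normexp. The neighbours nearest to IGF2 were mixed. The antisense transcript IGF2-AS was higher by 2.28 at its brighter probe and not called at the other (0.37), while INS (0.16), TH (0.23) and ASCL2 (-0.56), all bright enough to test, were not called. OSBPL5, the most distant neighbour at 1090 kb from the H19 probe, was lower by 2.01. KCNQ1OT1, the imprinted antisense RNA of KCNQ1, was well above background on no array.

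**Figure D3:**
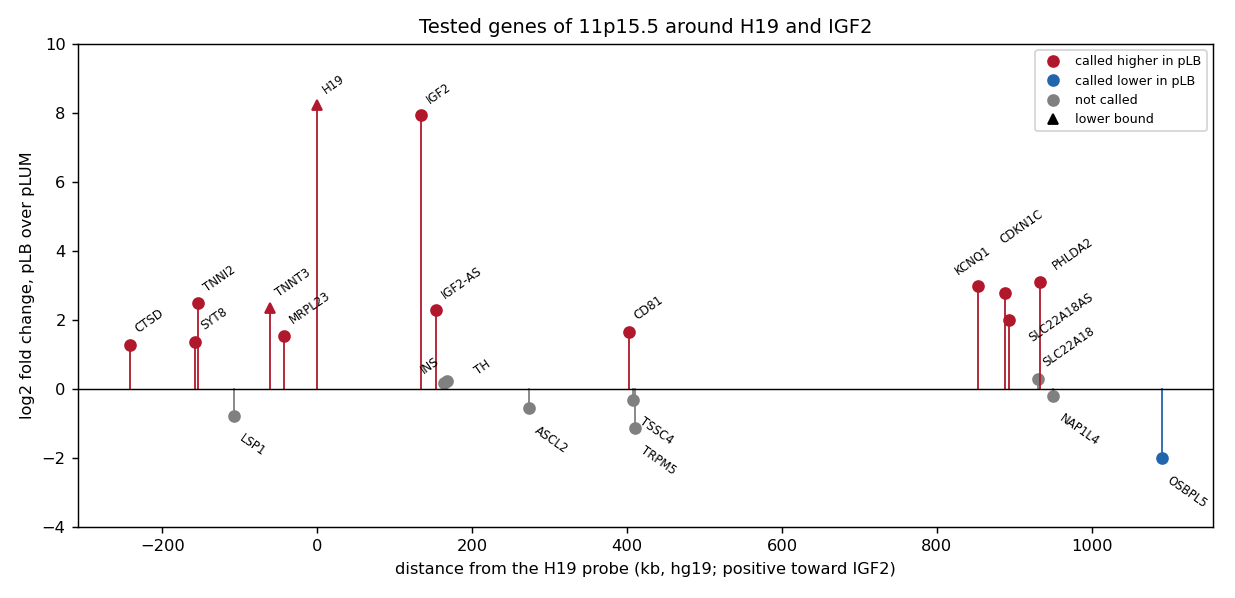
Log2 fold change of pLB over pLUM (vertical axis) of the tested genes of 11p15.5 against the distance of their probe from the H19 probe in kb (horizontal axis, positive toward IGF2). Triangles are lower bounds. The bound of H19 and the value of IGF2, 134 kb apart, stand above their neighbours, INS and TH lie close to 0 beside them, and OSBPL5 is the 1 gene called lower.

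The next list held proteins that bind IGF2 or H19 RNA or act on their imprinted domain. Of 10 tested, 6 were higher (60%, against 22.7% of all genes), 1 was lower (10% against 23.1%) and 3 were not called, with a median of 1.24 against 0.03. HMGA2 counted as not called by its brightest probe (0.41), but its other probes were higher, by at least 117-fold and at least 38.2-fold. LIN28B, an oncofetal RNA-binding protein that blocks let-7 maturation, was detected in none of the pLUM arrays and was 66.3-fold higher at the least. IGF2BP3, an oncofetal protein that binds IGF2 messenger RNA, was 70.6-fold higher (6.14, limma adjusted p of 1.7e-06), and its relative IGF2BP2 was 10.4-fold higher (3.38) and higher at both of its probes. IGF2BP1, the third of that family, was well above background on no array. ZFP57, a zinc finger protein that maintains imprints, was at least 2.99-fold higher, although its difference turned to -0.13 under normexp. CTCF, the insulator protein of the H19 control region, was not called (0.61), and its testis paralog CTCFL was not tested.

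The list of proteins that bind, release or carry IGFs outside the cell held binding proteins together with the PAPPA proteases and their stanniocalcin inhibitors. Of 11 tested, 7 were higher, 3 were lower and 1 was not called, against 22.7% higher and 23.1% lower of all tested genes. PAPPA2 and STC1 were among the higher genes and PAPPA among the lower ones. The median difference was 3.26, or 1.42 with the 6 genes that were dim in a line set at their bound. IGFBP3, the main IGF carrier of serum, had a bound of at least 164-fold higher in pLB. IGFBP7, a low-affinity binder, was higher by at least 41.5-fold, and IGFBP6, which prefers IGF2, by at least 14.6-fold. IGFALS, the acid-labile subunit of the serum complex, went the other way and was at least 12.2-fold lower. PAPPA, the protease that releases IGF from IGFBP4, was lower by 1.81 while IGFBP4 itself was higher by 1.42, and IGFBP5 was lower by 1.39. The count of 7 fell to 4 under normexp and to 2 with detection required on each of the 6 arrays, which removed 6 of these genes from the test.

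Among adaptors and brakes close to the receptor, 7 of 19 tested genes were higher (36.8%, against 22.7% of all genes), 5 were lower (26.3% against 23.1%) and 7 were not called, with a median of 0.37. SOCS2, a cytokine- and growth hormone-induced inhibitor, was higher in pLB by at least 27.4-fold, and its relative SOCS1 was 5.08-fold higher (2.34), falling to 0.77 under normexp. SH2B2, an adaptor of the insulin receptor, was 4.93-fold higher (2.30). Lower adaptors included GAB2 (-1.99) and GRB14 (-1.38), an inhibitor of insulin receptor kinase activity. The probes of GRB10, an imprinted inhibitor of INSR and IGF1R, disagreed in sign (0.98 and -0.98), and neither was called. IRS4 was not tested.

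The PI3-kinase, AKT, FOXO and TOR relay below IRS1 and IRS2 stood close to the background of all tested genes. Of 29 tested genes, 8 were higher (27.6%, against 22.7% of all genes), 8 were lower (27.6% against 23.1%) and 13 were not called, with a median of -0.09 against 0.03. Among AKT kinases, AKT1 was lower by 1.11, and AKT2 was not called at its brightest probe (0.02) but was lower at both of its others (-2.44 and -1.38). FOXO1, a transcription factor that AKT inactivates, was 9.90-fold higher (3.31). PIK3R3, a regulatory subunit of PI3-kinase, was 13.2-fold lower (-3.72), and RPS6KB1, the S6 kinase gene, was 5.81-fold lower (-2.54) at 1 of its probes. The catalytic subunit PIK3CA (-0.59) was not called.

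The partners of IGF2R in mannose 6-phosphate sorting were mostly not called. Of 16 tested, 3 were higher (18.8%, against 22.7% of all genes), 1 was lower (6.25% against 23.1%) and 12 were not called, with a median of -0.26. The cathepsin L gene, listed as CTSL1, was 9.41-fold higher (3.23) at its brighter probe and lower at another, and its mean over both probes was 0.94. Cathepsin D (CTSD), a classical estrogen-induced protease, was higher by 1.28, and the other mannose 6-phosphate receptor, M6PR, was not called (0.61). In the insulin and relaxin family, 0 of 4 tested members were higher and the relaxins RLN1 and RLN2 were lower, by at least 1.49-fold and at least 1.76-fold, with 0 lower under normexp or with a floor on dim signals.

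**Figure D4:**
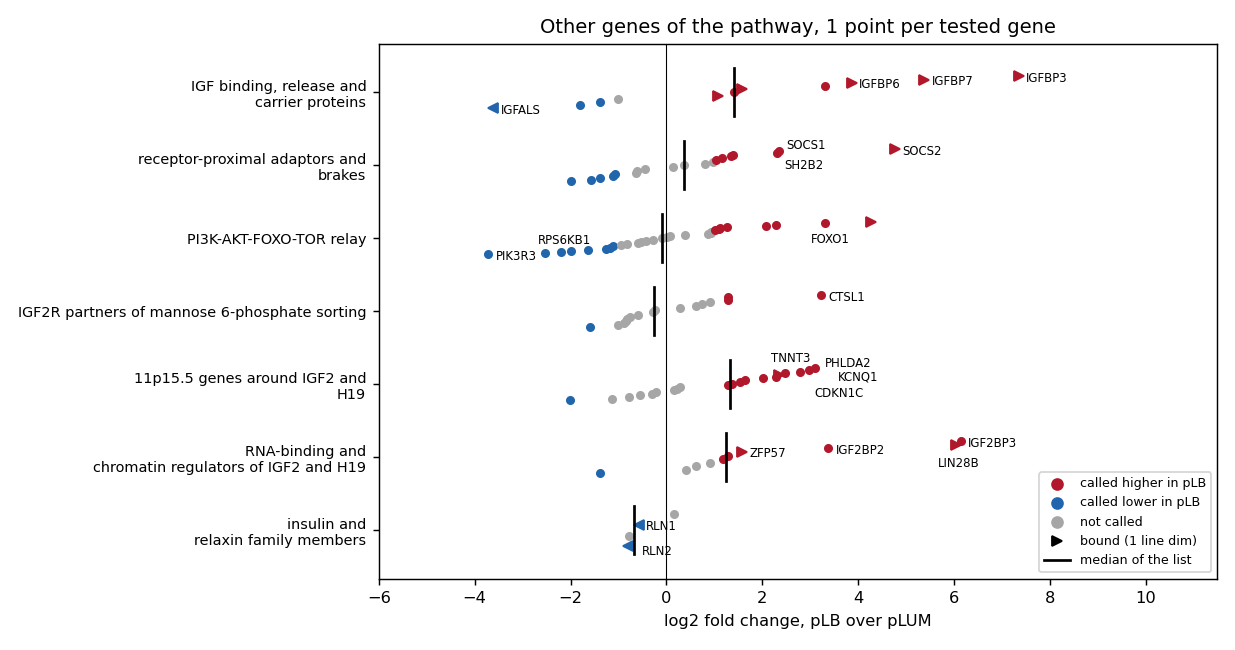
Log2 fold change of pLB over pLUM (horizontal axis) of each tested gene in 7 lists of IGF-related genes; red points were called higher, blue lower and gray neither, triangles are bounds for genes dim in a line, and the black bar is the median of the plotted values. The bound of IGFBP3 and the measured value of IGF2BP3 lie far to the right, the bound of IGFALS and the measured value of PIK3R3 far to the left, and the median of the PI3K relay is -0.09.

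The genes whose profiles over the 6 arrays lay nearest to each member were found among genes well above background on all of them, by the root mean square distance between centered log2 values. IGF2 lay nearest to FSCN1, an actin-bundling protein (0.12), then GSTP1 (0.17) and BMP7 (0.23). IRS1 at its higher probe lay nearest to TKT (0.037) and FGFR3 (0.039), and IRS2 to KLF13 (0.099) and ITGB8 (0.12). IGF2R lay nearest to CASP8 (0.11) and DOLPP1 (0.15), IGF1R to PTMA and ZNF496 (0.14 each), and INSR to FAM115A, now TCAF1 (0.069). These distances are descriptions of 6 arrays that share a line contrast, and IGF1 and H19 were left out because they were not well above background on every array.

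Sequence upstream of the start sites was read from RefSeq windows on GRCh38.p14 for 7 of the 8 members. Searched on both strands within 250 bases before the start, with overlapping matches counted, the GC box GGGCGG was in 42.6% of 35116 windows, the E-box CACGTG in 6.34% and the palindromic estrogen response element in 0.04%. None of the member windows held the estrogen response element. GC boxes numbered 2 for IGF1R, 6 for IGF2R, 4 for INSR, 4 for IRS1 and 5 for IRS2, and 0 for H19 and IGF1, with at least 3 found in 13.9% of all windows. INSR, which was not called, thus carried as many as IRS1. The member windows with GC boxes held 76.4% to 81.2% G and C, against a median of 58.0% over all windows. The H19 window held 58.0%, and the IGF1 windows held 44.0% and 39.6%. The part of base composition in the GC box counts was not tested. The IGF2R window held 3 E-boxes, a number reached in 28 of the 35116 windows. The IGF2R and IRS2 windows are shown for these runs, with the E-box in capitals for IGF2R (chr6:159968832-159969081, plus strand) and the GC box of either strand in capitals for IRS2 (chr13:109786584-109786833, minus strand).
IGF2R upstream: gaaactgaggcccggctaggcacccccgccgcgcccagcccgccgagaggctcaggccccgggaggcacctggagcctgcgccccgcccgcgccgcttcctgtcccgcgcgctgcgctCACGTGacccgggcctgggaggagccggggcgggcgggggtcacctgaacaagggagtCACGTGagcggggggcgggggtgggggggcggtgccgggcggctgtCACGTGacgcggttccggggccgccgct
IRS2 upstream: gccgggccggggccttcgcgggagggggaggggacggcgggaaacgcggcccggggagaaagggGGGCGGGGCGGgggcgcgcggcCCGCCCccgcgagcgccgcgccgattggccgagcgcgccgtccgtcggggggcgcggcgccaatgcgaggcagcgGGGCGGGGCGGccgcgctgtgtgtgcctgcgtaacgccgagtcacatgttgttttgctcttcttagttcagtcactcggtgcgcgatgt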

How the data were processed

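RNA from 3 sorts each of pLUM and pLB was labeled with Cy3 and hybridized to 6 Agilent 60-mer arrays. The deposited files hold scanner intensity per spot, extracted by the authors with Feature Extraction 10.10.1.1, whose processed intensity is background-subtracted. The submitters' processing notes name Partek, with no version, and probe positions are those of the files (hg19). Groups follow the labels. What each replicate number refers to beyond a separate sort is not given, so p-values measure only the spread between these samples. Control spots and outlier spots (296 to 387 per array) were left out, log2 processed intensity was centered on each array's 75th percentile, and spots of a probe were averaged. The 75th percentile ranged from 450 to 873 intensity units, 21280 to 22772 probes per array were well above background and 0 spots were saturated. The number of arrays limits the precision. Replicate arrays correlated at 0.984 to 0.991 in pLUM and 0.972 to 0.989 in pLB, and arrays of different lines at 0.78 to 0.806.

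The 23103 probes well above background on at least 3 of the 6 arrays were tested with limma 3.58.1 in R 4.3.3, with Benjamini-Hochberg adjustment over all of them, and called at 2-fold and an adjusted p under 0.05. A gene's probe with the highest mean represented it, and adjustment for gene calls ran over 17668 genes. Where no array of a line was well above background, the fold was bounded by the lowest signal well above background on those arrays. Of the tested genes, 14991 matched current RefSeq symbols. On simulated data (23097 probes, 200 changed), the pLB against pLUM test recovered 56 of 100 changes of 1.5 and 88 of 100 changes of 3 on the log2 scale, with 5 false calls. In the real data 21.9% of probes were called higher and 23.7% lower, a far larger share than the simulation changed. The Benjamini-Hochberg cutoff depends on that share, so the simulated rates do not carry over to the real test. The 3 pLUM arrays and pLB replicate 1 shared a slide, and pLB replicates 2 and 3 lay on another. Differences within the shared slide, and those with slide as a block, are the same contrast of pLB replicate 1 with the pLUM arrays. They are therefore not separate checks. Replicate numbers did not pair the arrays.

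Members and gene lists were chosen with earlier results of these data known. Named were all members, and from each list at most 4 genes that were called at 4-fold or more with the largest fitted changes. Other list genes were named by role after their values were seen. The 3 nearest profiles per member were computed. Alternatives covered background correction, scaling, filters, the fold threshold, the methods' t-test, probe averaging, slide and replicate blocks, and leaving out each array. Some items are not reported here.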

Additional observations from a re-analysis of the deposited data

How the results depend on the processing

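The number of members called higher was 5 or 6 and the number called lower was 0 under all 20 alternatives, and IGF2 at its brighter probe, H19, IGF2R and IRS2 kept their calls wherever they were tested. H19 was not tested with detection required on each of the 6 arrays. Scaling moved the median gene by -0.01 (median), -0.03 (quantile) and 0.24 (spike-in), and normexp by -0.24. Causes of the changes below were not tested.

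IGF1R (99507366) lost its call with slide as a block (1.07) and under the methods' t-test after Benjamini-Hochberg adjustment (1.15), and ranged from 0.84 to 1.43 with 1 array left out, the lowest without pLB replicate 3. The IGF2 junction probe (2154402) lost its call under normexp (0.55), IRS1 (227600148) with the mean of its probes (0.73), and INSR (7112351) turned to 0.04 under spike-in scaling. The replicate block left the members called higher at 6, with IGF1R at 1.15, genes called higher in pLB at 3967 and genes called lower in pLB at 4021. Same-numbered arrays had correlations of -0.265, -0.095 and -0.218 between their deviations from the line means, so the numbers were not treated as pairs, and the block changed no call of a member.

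Under normexp, probes called higher fell to 3000 and genes called higher to 2562, IGF binding, release and carrier proteins higher to 4, receptor-proximal adaptors and brakes lower to 3, and relaxins lower to 0, and ZFP57 turned to -0.13. With detection required on each of the 6 arrays, IGF binding, release and carrier proteins higher numbered 2, PI3K-AKT relay genes higher 5 and relaxins lower 0, which were also 0 with the signal floor. Adaptors and brakes lower numbered 3 with spike-in scaling, and 3 to 5 with 1 array left out (3 without pLB replicate 2). IGF2R sorting partners higher numbered 6 with no fold threshold, and those lower 7 with no fold threshold, 3 with quantile normalization, 2 with median scaling, 2 with slide as a block and 1 to 3 with 1 array left out (3 without pLB replicate 3). Neighbours at 11p15.5 called lower numbered 2 with no fold threshold, with the mean of the probes and with slide as a block, and 1 to 2 with 1 array left out (2 without pLB replicate 3). Of the 22 list genes named by rule, 7 changed a call under some alternative and 1 reversed.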
